A study of Mus musculus with 12 samples.

Results

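DNA transposons were read out here as every repeat row of the deposited count table whose class is given as DNA. They comprised 162979 genomic copies of 5138235 repeat copies in all, and fell into 17 families and 197 subfamilies, the named groups of copies descended from the same ancestral element. Copies whose class carries a question mark (1027 copies) were not members. RNA and ribosome footprints, the stretches of RNA shielded from nuclease by ribosomes, came from whole testes of C57BL/6 mice at postnatal day 16. Both genotypes carried a null allele of Mael, the gene of the piRNA pathway protein Maelstrom: Mael+/- controls had 1 working copy left and Mael-/- mice had none. For each genotype 3 RNA and 3 footprint libraries were sequenced, 12 libraries in 4 groups, made from aliquots of testis extracts collected under cycloheximide, which arrests elongating ribosomes. The labels do not say which animals a replicate came from, so p-values measure the spread between these replicates.

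DNA transposons move by a cut-and-paste route. An element codes for a transposase that binds the inverted repeats at its ends, excises it and inserts it elsewhere, with no RNA copy of the element in the cycle. The piRNA pathway, of which Maelstrom is a part, is known for holding down retrotransposons such as LINE-1, which do copy themselves through RNA. In mice no DNA transposon is known to be still mobile. Their genomic remains are mostly short, mutated fragments of the hAT superfamily (Charlie, Tip100, Blackjack) and of the Tc1/mariner superfamily (Tigger, Tc2, Mariner), many of them in introns and untranslated parts of genes, so that reads over a copy need not come from a promoter of its own. The table names each copy but gives neither its position nor its length, so levels of copies and families are given per library and not per length, and none of their sequences is shown.

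RNA libraries held 13697267 to 27462358 counts on genes, and footprint libraries 7609932 to 13233565. Mael held 5045, 4314 and 3800 counts in Mael+/- RNA and 1, 2 and 0 in Mael-/- RNA, and 1294, 660 and 863 against 0, 0 and 7 in footprints. Markers of Sertoli, Leydig, peritubular and germ cells were all detected, and both haemoglobin genes of the blood list were listed at 0 in all 12 libraries. Extract 1 of the Mael+/- mice stood apart. Summed over 9 genes of pachytene and later germ cells, none of them at 0 throughout, its level was 659 CPM (counts scaled to a common library size of 1e+06 by the gene total and its TMM factor) against 216 and 230 in the other Mael+/- RNA libraries and 167 to 196 in Mael-/- RNA. In footprints it was 844 CPM, against 248 and 298, and 209 to 255. In RNA 6 of the 9 genes were lower in Mael-/- and none passed the test in either assay, and fewer cells of a type cannot be told apart from less RNA per cell in whole testis. The general germ cell list was also high in that extract, at 2249 CPM in RNA against 979 and 1181 in the other Mael+/- libraries and 996 to 1355 in Mael-/-. Leydig markers varied within both genotypes, from 163 to 338 CPM in Mael+/- RNA and from 107 to 354 CPM in Mael-/- RNA.

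Copies of DNA transposons held 270195 counts, 167840 in RNA and 102355 in footprints. Per library this was 1.11 to 1.38% of all repeat counts. Most copies had few counts or none. At least 1 count was found on 31182 copies (19.1%), and 18300 of these had 3 counts or fewer over all 12 libraries. A copy without counts need not be silent, since reads of near-identical copies may be split or lost in the counting. A small set carried much of the signal. The 10 copies of the highest total held 5.56% of the counts, the top 100 held 16.8%, and 575 copies with counts in all 12 libraries held 26.0%. Across the 197 subfamilies, the total count followed the number of genomic copies (Spearman's rho 0.88, a description over subfamilies of the same libraries).

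The first question was whether the class as a whole responded to the loss of Mael. In RNA it stood at 1427, 1022 and 1196 CPM in Mael+/- testes and at 1561, 1153 and 1117 CPM in Mael-/- testes. The ranges overlapped, and the highest value belonged to the shallowest RNA library, Mael-/- replicate 1. The mean was 1215 ± 203 CPM (SD, n = 3) in Mael+/- and 1277 ± 246 CPM (SD, n = 3) in Mael-/-, a log2 difference of 0.07 against a spread between replicates of 0.25 (exact two-sided permutation test, p = 0.7, where 0.1 is the smallest p that 3 against 3 allows). In footprints the class stood at 1922, 1676 and 1368 CPM in Mael+/- and at 1797, 1807 and 1829 CPM in Mael-/-. The Mael-/- values lay inside the Mael+/- range, with a log2 difference of 0.14 (exact permutation test, p = 0.4). The small RNA difference turned negative without Mael-/- replicate 1 (-0.08) or Mael+/- replicate 2 (-0.05), and was 0.19 without Mael+/- replicate 1. L1Md_T, the young LINE-1 subfamily that piRNAs restrain, gives the scale of a response in the same libraries: its log2 fold change was 2.64 (SE 0.22) in RNA and 2.41 (SE 0.19) in footprints (edgeR quasi-likelihood test, adjusted p = 1.3e-06 and 6.36e-32). The log2 ratio of L1Md_T to DNA transposon counts was 2.55 higher in Mael-/- RNA and 2.24 higher in Mael-/- footprints, with no overlap between genotypes.

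The class was then set against other old repeats, L2 and MIR, extinct retrotransposons that like the DNA elements survive only as fossils (188208 copies). This ratio is formed within a library and needs no scaling between libraries. The log2 ratio of DNA to L2 and MIR counts was -0.17, -0.26 and -0.23 in Mael+/- RNA and -0.15, -0.22 and -0.25 in Mael-/- RNA. The 2 genotypes overlapped (difference 0.02, exact permutation test, p = 0.6). In footprints the ratio was -0.49, -0.60 and -0.55 in Mael+/- and -0.48, -0.49 and -0.51 in Mael-/- (difference 0.05, exact permutation test, p = 0.2). DNA elements and L2 with MIR ranked the 6 RNA libraries in the same order, from Mael-/- replicate 1 and Mael+/- replicate 1 at the top to Mael+/- replicate 2 at the bottom.

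Families differed greatly in level. hAT-Charlie, whose copies carry the names Charlie, MER5, MER20 and URR1, held 70.1% of the counts with 64.8% of the copies, and TcMar-Tigger, relatives of the fly element pogo, held 19.2% with 21.5% of the copies. hAT-Tip100 followed with 4.85%, hAT-Blackjack with 1.35%, TcMar-Tc2 with 1.07% and TcMar-Mariner with 1.02%. The other 11 families held under 1% each. They were MULE-MuDR, hAT?, hAT, the unplaced DNA family, PiggyBac, TcMar?, PiggyBac?, hAT-Tip100?, TcMar, MuDR and TcMar-Pogo, with totals from 1722 counts down to 3.

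No family passed the test in either assay. Of all 52 repeat families tested in RNA 0% were called, of 51 tested in footprints 0%, and of DNA families 0 of 14 and 0 of 13 (edgeR quasi-likelihood test, Benjamini-Hochberg adjusted p under 0.05). At an unadjusted p under 0.05 there were 0 DNA families in RNA and 1 (7.69%) in footprints, against 5.77% and 7.84% of all families. DESeq2 called 0 DNA families in either. hAT-Charlie measured 1005, 744 and 855 CPM in Mael+/- RNA and 1110, 823 and 810 CPM in Mael-/- RNA. Its log2 fold change was 0.07, with a 95% interval from -0.34 to 0.49. In footprints it measured 1323, 1127 and 926 CPM against 1197, 1229 and 1247 CPM, a log2 fold change of 0.12 (interval -0.17 to 0.41). Both assays had overlapping genotypes. TcMar-Tigger gave 0.07 in RNA (interval -0.38 to 0.51) and 0.16 in footprints (interval -0.13 to 0.44). For these 2 largest families a change by 2-fold, which is 1 on the log2 scale, lay outside the interval in either direction.

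Among the 6 largest families, hAT-Tip100 was the one with more raw footprint than raw RNA counts, at 1.37 footprint counts per RNA count. Footprint libraries held fewer counts on genes, and this ratio is not scaled for depth. In CPM, scaled to the gene counts of each assay, all 6 were higher in footprints. The Mael+/- mean of hAT-Charlie was 1125 CPM in footprints against 868 CPM in RNA. Yet per the study's methods gene counts cover the whole mRNA in RNA but only coding sequence in footprints. The base of the scaling thus differs, so a higher CPM in footprints need not mean a higher level there. The log2 fold change of hAT-Tip100 was 0.04 in RNA and 0.17 in footprints. The unplaced DNA family had the smallest p in footprints. It measured 8.29, 6.84 and 5.17 CPM in Mael+/- and 9.55, 8.59 and 9.82 CPM in Mael-/- footprints. The genotypes did not overlap, yet the log2 fold change of 0.47 (SE 0.22) did not pass (adjusted p = 0.485). PiggyBac?, with 21 copies that had any count, also did not overlap in footprints at 1.17 to 1.29 against 1.66 to 2.20 CPM (log2 fold change 0.60, adjusted p = 0.591). For TcMar, MuDR and TcMar-Pogo the counts were too low for the test in either assay, as they were for hAT-Tip100? in footprints.

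**Figure D1:**
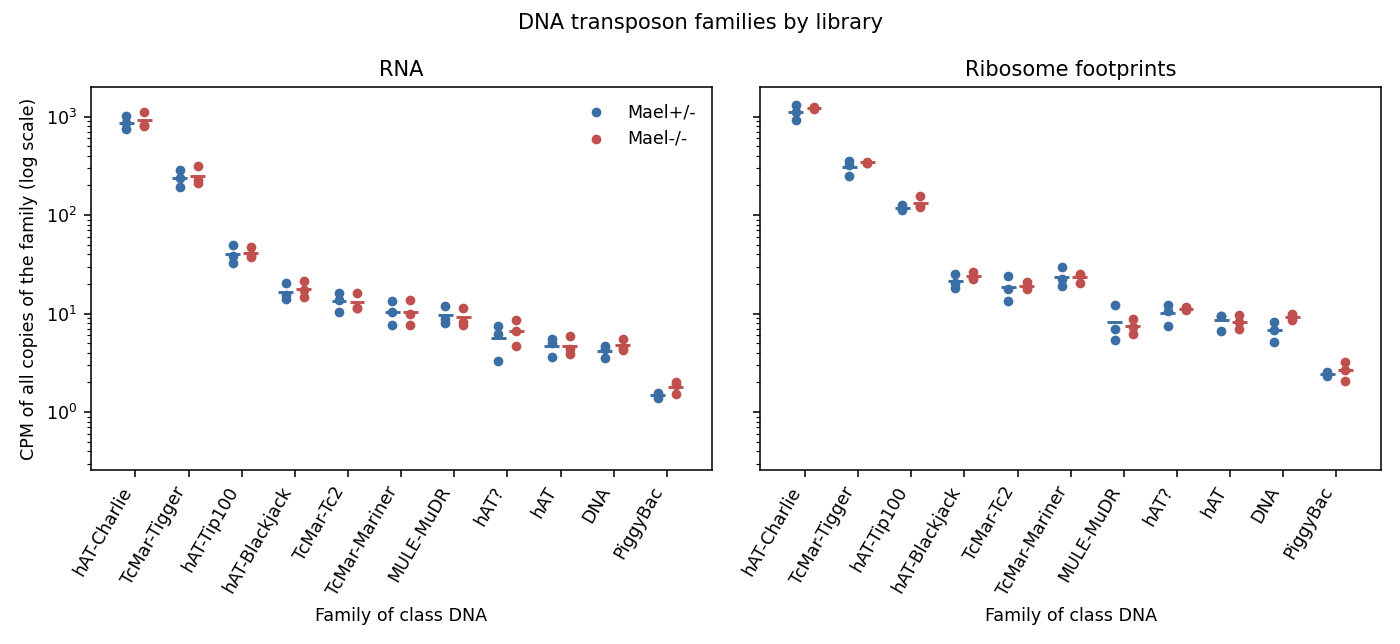
CPM of the 11 DNA transposon families of the highest total (log scale), for RNA on the left and footprints on the right. Points are the 3 libraries of a group and short lines their mean, and the 2 genotypes overlap in every family shown except the unplaced DNA family in footprints.

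The most abundant subfamilies belong to rodents. URR1A and URR1B, short nonautonomous hAT elements, held 34795 and 37308 counts from 17598 and 16875 copies, and with RCHARR1 and RMER30 the rodent-lineage elements made up 27.5% of the copies, 33.3% of RNA counts and 28.7% of footprint counts. In RNA URR1B measured 201, 152 and 178 CPM in Mael+/- and 226, 172 and 175 CPM in Mael-/-. In footprints it measured 234, 201 and 163 CPM against 220, 223 and 221 CPM. Genotypes overlapped in both assays, and the log2 fold changes were 0.11 (SE 0.18) and 0.15 (SE 0.18). URR1A gave 0.07 and 0.18, RCHARR1 0.13 and 0.03, and RMER30 0.08 and 0.15 in RNA and footprints, and none passed. The rodent-lineage elements summed to 401 ± 54.9 CPM (SD, n = 3) in Mael+/- RNA and 427 ± 76.1 CPM (SD, n = 3) in Mael-/- RNA (log2 difference 0.09, exact permutation test, p = 0.7). Relative to all older DNA subfamilies their log2 ratio differed by 0.03 between genotypes in RNA (exact permutation test, p = 0.6) and by 0.02 in footprints, where the genotypes did not overlap (-1.34 to -1.32 in Mael+/- and -1.32 to -1.29 in Mael-/-, exact permutation test, p = 0.1, the smallest possible).

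The rest of the 10 most abundant subfamilies, which together held 54.7% of the counts, were old elements shared with other mammals. They were MER20, MER5A, MER5B, Charlie8 and Charlie1a of the hAT-Charlie family and MER2 and Tigger7 of the Tigger family. Their log2 fold changes in RNA lay between 0.0035 (Charlie8) and 0.12 (Tigger7), and in footprints between 0.0064 (MER5A) and 0.18 (MER2). MER20 measured 62.9, 53.4 and 56.9 CPM in Mael+/- RNA and 71.8, 55.6 and 53.1 CPM in Mael-/- RNA, and MER5A 53.7, 45.2 and 47.5 CPM against 60.1, 44.7 and 44.0 CPM. Both overlapped between genotypes. Charlie8 differed from the others in how its signal was spread: it had 1126 counts per 100 copies, where the other 9 had 118 to 232, and 4 consecutively numbered copies (264 to 267) held 79.3% of it.

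The subfamilies were then read against all repeats tested. In RNA 10 of 1114 repeat subfamilies were called (0.898%), all higher in Mael-/-, and 0 of 150 DNA subfamilies were among them. None of the 150 had an unadjusted p under 0.05, against 62 of the 1114, and DESeq2 also called 0. The median log2 fold change was 0.07 for DNA subfamilies and 0.09 for all subfamilies. In footprints 19 of 1045 were called (1.82%, of which 0.67% were lower in Mael-/-) and of 135 DNA subfamilies 1, Charlie18a. Of the 135, 5 (3.70%) had an unadjusted p under 0.05, against 7.46% of all subfamilies. Of these 5, 3 were higher in Mael-/-, and DESeq2 called 0 DNA subfamilies. The median was 0.13 for DNA subfamilies and 0.13 for all subfamilies. For 107 of 150 DNA subfamilies in RNA, and 110 of 135 in footprints, the 95% interval of the log2 fold change lay within 1 of 0, so for these a 2-fold change either way was outside the interval. For the other 43 and 25, Charlie18a in footprints among them, the interval reached beyond that range. Of the 197 subfamilies 7 had no count in any library. Footprints beyond RNA, the genotype by assay interaction fitted on the 12 libraries together, gave 0 calls among 153 DNA subfamilies and 0% of all 1148 tested, both without and with a term for each extract, and 0 with DESeq2. At an unadjusted p under 0.05 there were 0 DNA subfamilies without that term and 3 (1.96%) with it, against 3.05% and 4.44% of all tested. The 95% interval, fitted without that term, lay within 1 of 0 for 65 of the 153. For the others it reached beyond a 2-fold change, so 0 calls do not show that these were unchanged.

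Separation of the libraries was counted as well. Among subfamilies with a mean of at least 10 counts, all 3 Mael-/- RNA libraries lay above all 3 Mael+/- libraries for 5 of 148 DNA subfamilies (3.38%), against 9.18% of all subfamilies, and below them for 1 (0.676%), against 2.02%. In footprints they lay above for 12 of 132 (9.09%), against 11.5%, and below for 3 (2.27%), against 1.65%. The 5 in RNA were Charlie13b, Kanga1d, MER126, MER45R and MER47A, and the 1 below was Kanga11a. The 3 below in footprints were Charlie18a, Charlie6 and MER115. All were named here after their values were seen.

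**Figure D2:**
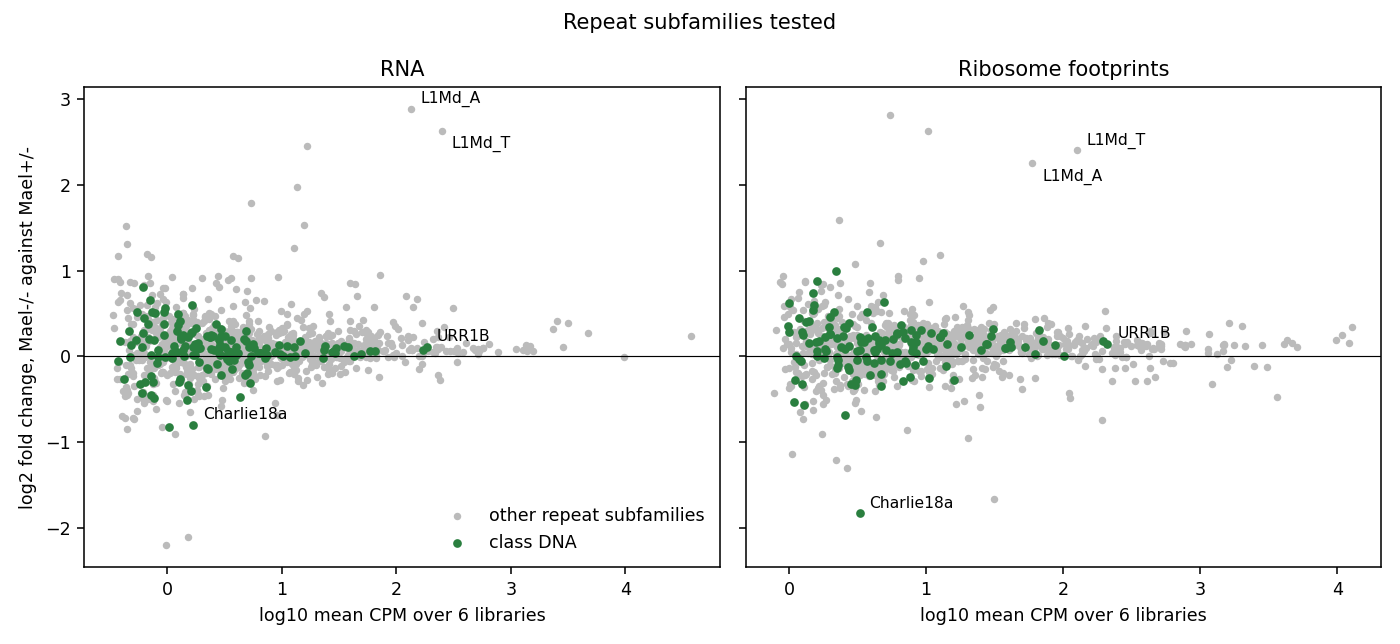
log2 fold change of every repeat subfamily tested against its mean level (log10 CPM over 6 libraries), RNA on the left and footprints on the right. DNA subfamilies (green) lie near 0 among the other repeats (grey), Charlie18a is the DNA subfamily farthest from 0 in footprints, and L1Md_A and L1Md_T lie far above.

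The subfamilies with the largest fold changes were named by rule. In RNA the 5 highest were Kanga1d (log2 fold change 0.81, SE 0.43), Tigger12c (0.66), MER45R (0.61), Tigger17b (0.56) and MER126 (0.52), each under 3 CPM in every library. Kanga1d, a Tc2-like element, had 10, 13 and 10 counts in Mael+/- RNA and 15, 15 and 15 in Mael-/- RNA. The 5 lowest were Charlie6 (-0.83, SE 0.47), Charlie18a (-0.79), Ricksha_c (-0.50), Kanga1a (-0.48) and FordPrefect (-0.47). None of the 10 passed (adjusted p 0.966 to 0.996). Without Mael+/- replicate 1, Charlie6 stood at -0.10, Ricksha_c at -0.11 and FordPrefect at 0.26, and Kanga1a stood at -0.17 without Mael+/- replicate 3. In footprints the 5 highest were Tigger6b, Charlie2a, Tigger16b, Tigger13a and Charlie7a, and the 5 lowest Charlie18a, Ricksha_c, MER47A, Charlie29a and MER45B. Tigger6b had 13, 11 and 16 footprint counts in Mael+/- and 39, 31 and 23 in Mael-/-. Its genotypes did not overlap, and the log2 fold change of 1.0 (SE 0.34) did not pass (adjusted p = 0.153). Tigger13a, with 44, 27 and 35 against 75, 65 and 50 footprint counts, gave 0.64 (SE 0.25, adjusted p = 0.302) and was called when Mael+/- replicate 1 was left out (0.80, adjusted p = 0.0369). In that setting 51 of all 1065 subfamilies were called (4.79%).

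Charlie18a, a hAT element of 242 copies, fell in footprints. Its counts were 87, 20 and 35 in Mael+/- and 14, 20 and 11 in Mael-/-, which after scaling is 9.24, 2.58 and 3.42 CPM against 1.06, 2.0 and 1.3 CPM. All Mael-/- libraries lay below all Mael+/- libraries, and Mael+/- replicate 1 was the highest by far (log2 fold change -1.83, SE 0.31, edgeR adjusted p = 5.17e-07). That SE and p rest on a residual spread shared by all footprint subfamilies, not on the replicates of Charlie18a alone. In RNA it had 83, 23 and 52 counts against 23, 15 and 36. There the genotypes overlapped and the log2 fold change was -0.79 (SE 0.43, adjusted p = 0.996). The footprint call was lost with DESeq2 (-1.81, SE 0.65, adjusted p = 0.24) and without Mael+/- replicate 3 (-2.08, adjusted p = 0.141). Without Mael+/- replicate 1 it stood at the threshold (-1.08, adjusted p = 0.0494). In RNA it passed when Mael+/- replicate 2 was left out (-1.19, adjusted p = 0.0142) and stood at -0.21 without Mael+/- replicate 1 (adjusted p = 0.851).

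A single copy held 53.5% of the Charlie18a footprints. Charlie18a_224 had 66, 8 and 25 footprint counts in Mael+/- and 1, 0 and 0 in Mael-/-, and 36, 5 and 17 RNA counts in Mael+/- and 0, 0 and 0 in Mael-/-. It was near absent from all 6 Mael-/- libraries and highest in Mael+/- extract 1 in both assays. The remaining Charlie18a copies had 21, 12 and 10 footprint counts in Mael+/- and 13, 20 and 11 in Mael-/-, and 47, 18 and 35 against 23, 15 and 36 RNA counts. With the copy of the highest count left out of every subfamily, the log2 fold change of Charlie18a in footprints was -0.16 (adjusted p = 0.911).

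Single copies were therefore tested as well. In footprints Charlie18a_224 was the only DNA copy called of 154 tested, where 45 of 5511 copies of all classes were called (0.817%, and 0.254% as lower in Mael-/-). Its log2 fold change was -6.33 (SE 0.90, edgeR adjusted p = 0.000325), and the ratio of scaled counts was 114 with a 95% counting interval from 20.1 to 4562, since a single count stands against 99. Without Mael+/- replicate 1 that ratio was 58.1 (9.72 to 2362). DESeq2 gave -6.66 (adjusted p = 0.00384). The copy passed the low-count filter through the Mael+/- group alone and so had to differ, and these fitted values are a description. Without Mael+/- replicate 3 it was not tested. The exact permutation test over the 6 footprint libraries gave p = 0.1, the smallest possible, and on a copy chosen this way it is likewise a description. In RNA the copy did not pass the default filter, which asks for enough counts in 3 libraries. Its RNA counts of 58 against 0 gave a scaled ratio whose exact 95% counting interval begins at 12.2, or at 6.27 without Mael+/- replicate 1 (22 counts against 0). These intervals cover counting error only, for a copy chosen by its footprint difference. In RNA 269 of 16710 copies were called (1.61%) and 0 of 397 DNA copies. DESeq2 also called 0, and 12 DNA copies (3.02%) had an unadjusted p under 0.05 in edgeR, against 9.01% of all copies. The 95% interval of the log2 fold change lay within 1 of 0 for 127 of the 397 in RNA and 72 of the 154 in footprints. For the other copies it reached beyond a 2-fold change. FordPrefect_30, at 152, 29 and 53 RNA counts in Mael+/- and 32, 34 and 40 in Mael-/-, passed only without Mael+/- replicate 2 (log2 fold change -1.26, adjusted p = 0.0462).

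A search made after these values were seen looked for other DNA copies with at least 60 counts in Mael+/- libraries and at most 5% of that number in Mael-/- libraries. It found 3 of 217 copies, against 73 of 9510 copies of all classes. Charlie12_846 had 20, 2 and 4 RNA counts and 41, 6 and 7 footprint counts in Mael+/- and 0 in all 6 Mael-/- libraries. Charlie1a_2245 had 10, 2 and 2 RNA counts and 47, 0 and 7 footprint counts in Mael+/- and likewise 0 in Mael-/-. Like Charlie18a_224, both were highest in Mael+/- extract 1, as were 72 of the 73 in both assays, the extract with the high pachytene markers given above. The part of those cells in these values was not tested. The reverse pattern, at least 60 counts in Mael-/- and at most 5% of them in Mael+/-, was met by 0 of 178 DNA copies and by 51 of 8762 copies of all classes, 43 of them LINE. Since the search used the contrast itself, these counts are descriptions.

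**Figure D3:**
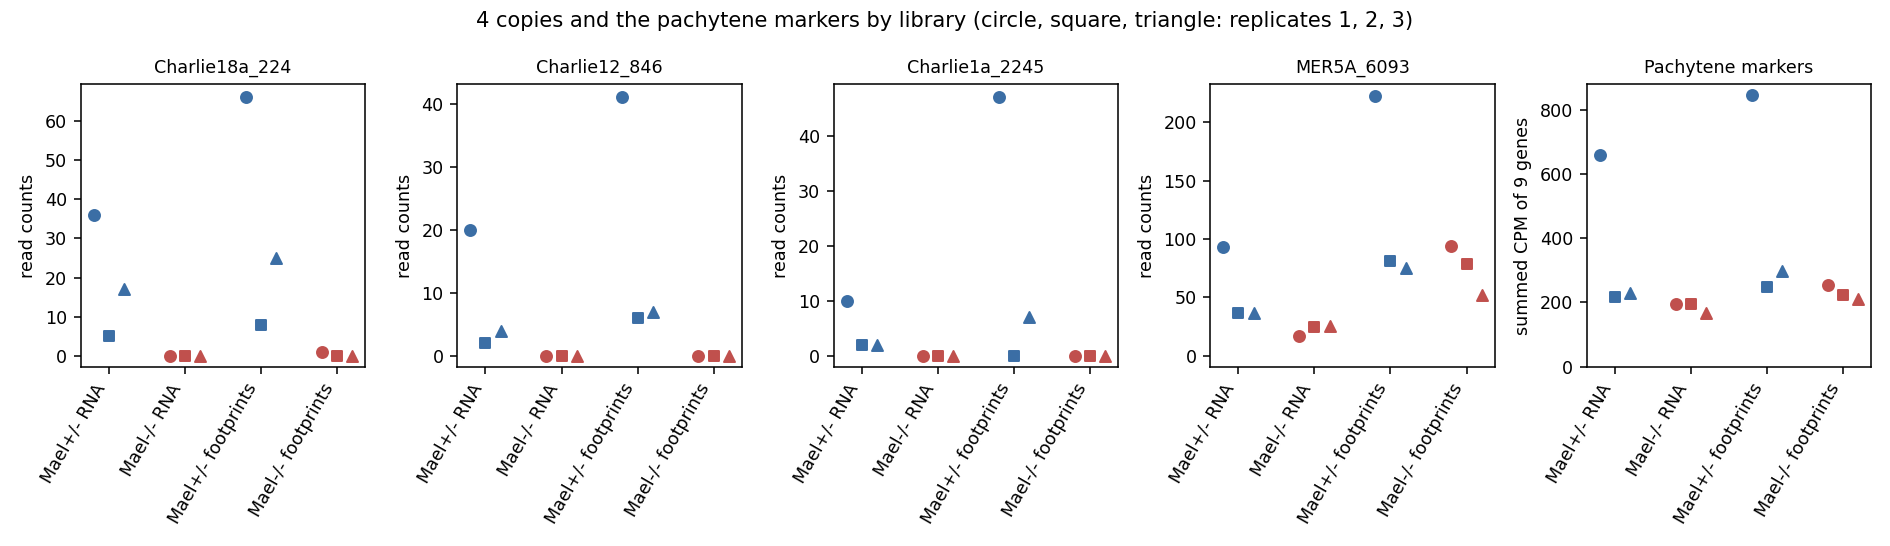
Read counts of 4 DNA transposon copies in the 12 libraries, and the summed CPM of 9 pachytene and later marker genes (right). Circles, squares and triangles are replicates 1, 2 and 3 of each group, and Mael+/- replicate 1 is the highest library of its assay in every panel.

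The copies of the highest total count were named by rule. FordPrefect_265 (3537 counts), Charlie8_265 (2523), Charlie8_266 (1612), Charlie8_267 (1331), MER102c_13 (1162), URR1B_7681 (1157), Charlie8_264 (1036), URR1A_5899 (1024), MER5A_6093 (838) and Charlie5_1351 (793) led, and none was called in an assay in which it was tested. Charlie8_265 had 214, 365 and 292 RNA counts in Mael+/- and 218, 224 and 306 in Mael-/-, with a log2 fold change of 0.17 in RNA and 0.22 in footprints. URR1B_7681 gave 0.08 in RNA. MER5A_6093 had 222, 81 and 75 footprint counts in Mael+/- and 94, 79 and 52 in Mael-/-, and its log2 fold change of -0.96 (SE 0.35, adjusted p = 0.645) did not pass. Mael+/- replicate 1 was the highest library, and the lowest Mael+/- library, at 7.32 CPM, lay within the 6.15 to 7.89 CPM of Mael-/-. In RNA MER5A_6093 had 93, 37 and 37 counts against 17, 25 and 26. The lowest Mael+/- library, at 1.36 CPM, lay above all Mael-/- libraries, and the log2 fold change of -0.99 (SE 0.36, unadjusted p = 0.0116) did not pass after edgeR's adjustment over all copies (adjusted p = 0.305).

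Footprints and RNA of the same copies were compared next. Over subfamilies with at least 100 RNA counts (129), the median was 0.62 raw footprint counts per raw RNA count, and in 12 of them footprint counts outnumbered RNA counts. These ratios are not scaled for the shallower footprint libraries, so a value under 1 need not mean a lower level in footprints. A group of copies had footprint counts but no RNA counts. These 7688 copies, at 0 in all 6 RNA libraries, held 30694 footprint counts, 30.0% of the DNA transposon total. Of 184 copies with at least 50 footprint counts, 82 (44.6%) had 0 RNA counts. In the reverse direction, 9855 copies with RNA and no footprints held 13.8% of RNA counts, and 3 of 419 copies with at least 50 RNA counts had 0 footprints. DNA elements were not alone in this. The share of footprints in copies without RNA was 27.5% for LINE, 21.7% for LTR, 21.7% for SINE, 33.3% for L2 and 35.2% for MIR copies. According to the study's methods, genes were counted over the whole mRNA in RNA and over coding sequence alone in footprints. Whether these copies lie in untranslated parts of mRNAs, where the assays would then be counted differently, was not tested, as it needs the positions of the copies.

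FordPrefect_265, a copy of the Tip100-type element FordPrefect, led this group. It had 412, 450 and 520 footprint counts in Mael+/- and 1159, 595 and 401 in Mael-/-, and 0 counts in all RNA libraries. Replicate 1 of Mael-/- was the highest and the genotypes overlapped (log2 fold change 0.35, adjusted p = 0.999). This copy alone held 76.5% of FordPrefect counts and 3.46% of all DNA transposon footprints. Without it hAT-Tip100 had 0.73 raw footprint counts per RNA count in place of 1.37, and the share of its footprints in copies without RNA was 35.6% in place of 65.7%. The next were MER58A_216 (117, 77 and 81 footprint counts in Mael+/- and 138, 122 and 102 in Mael-/-), URR1B_15438 (94, 93 and 96 against 154, 104 and 82), Charlie6_58 and MER5A_3864. Each of these 4 overlapped between genotypes after scaling, and none passed the test. Among the ratios of raw footprint to RNA counts by subfamily, FordPrefect (7.0) and Charlie6 (6.69) were the highest of the 129. Copies without RNA held 90.2% and 97.3% of their footprints.

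The footprints on copies without RNA were summed per library. This sum stood at 517, 535 and 434 CPM in Mael+/- and 538, 547 and 551 CPM in Mael-/-. The genotypes were adjacent but did not overlap (log2 difference 0.14, exact permutation test, p = 0.1, the smallest possible). Its share of DNA transposon footprints was 26.9, 31.9 and 31.7% in Mael+/- and 30.0, 30.2 and 30.1% in Mael-/-. Footprints on copies that did have RNA gave a like difference of 0.15 (exact permutation test, p = 0.5). Some of these copies varied widely between replicates. RCHARR1_5683 had 17, 173 and 58 footprint counts in Mael+/- and 116, 37 and 20 in Mael-/-, and Tigger7_2222 had 4, 84 and 32 against 46, 17 and 8, both with 0 in RNA. Both were lowest in Mael+/- replicate 1 and highest in Mael+/- replicate 2. Tigger7_2222 was called only without Mael+/- replicate 1 (log2 fold change -1.67, adjusted p = 0.0468).

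**Figure D4:**
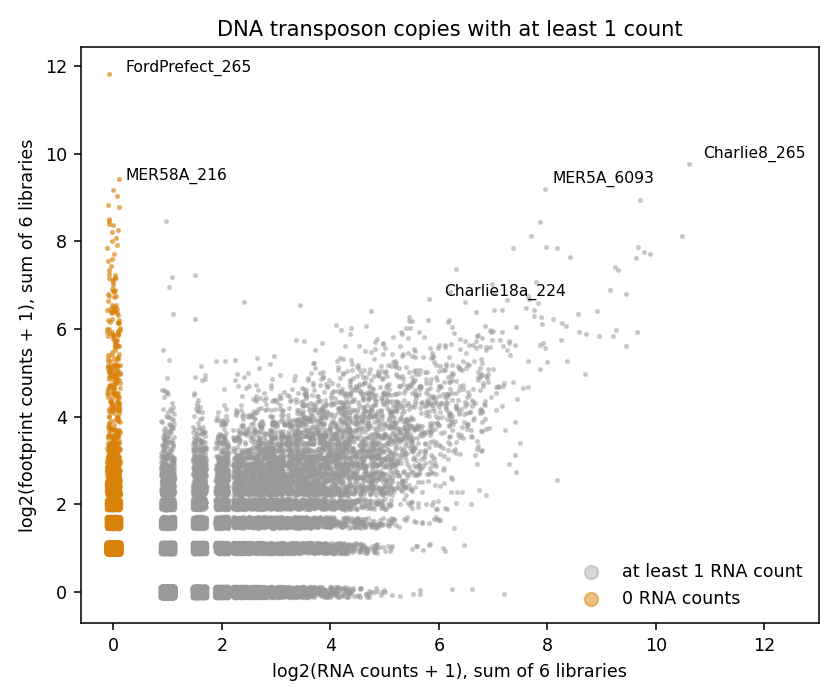
RNA against footprint counts of the DNA transposon copies with at least 1 count, each summed over 6 libraries and shown as log2(count + 1), with small random shifts so that points do not cover each other. Copies with 0 RNA counts (orange) form the column at the left, led by FordPrefect_265, and Charlie8_265 is the highest copy with both.

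DNA transposons also left genes behind: host genes whose coding sequence is related, in whole or in part, to that of a DNA transposon and which now serve the cell. They were counted as genes and not as repeats, on 26 genes set out as a list. Of these 23 were tested in each assay and 0 were called, in RNA, in footprints or in footprints beyond RNA (of all genes 0.116%, 0.0593% and 0% were called). DESeq2 also called 0. At an unadjusted p under 0.05 there was 1 in RNA (4.35%) and none in the others, against 5.39%, 4.33% and 0.542% of all genes. The median log2 fold change was -0.03 in RNA and -0.05 in footprints, against -0.01 over all genes in both.

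Levels of these genes are given per kilobase of annotated exon for RNA and of coding sequence for footprints (GENCODE vM21 on GRCm38). Of the pogo relatives, Cenpb, the centromere protein that binds satellite DNA (chr2:131175182-131180067), was the highest at 40.2 ± 6.45 CPM per kilobase (SD, n = 3) in Mael+/- RNA and 42.9 ± 1.82 (SD, n = 3) in Mael-/- RNA. Pogz (chr3:94837567-94882326), a chromatin protein, stood at 8.44 ± 1.08 and 8.09 ± 0.831, and Pogk at 13.4 ± 0.434 and 11.9 ± 1.05. The 5 genes most changed in RNA included Tigd5 (log2 fold change -0.19, SE 0.14) and Pogk (-0.17, SE 0.09), and neither passed. Tigd4 was almost absent, with 6 RNA counts in all 6 libraries. Tigd3 (chr19:5891138-5894149) had the smallest p. It had 183, 227 and 187 RNA counts in Mael+/- and 133, 210 and 291 in Mael-/-, and once scaled every Mael-/- library lay above every Mael+/- library (log2 fold change 0.39, SE 0.14, unadjusted p = 0.018, adjusted p = 0.851).

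Of the hAT-derived genes, Zbed6, a transcriptional repressor known for controlling Igf2 in muscle, stood at 9.89 ± 1.95 CPM per kilobase in Mael+/- RNA and 10.1 ± 2.14 in Mael-/- RNA. Its reads may be shared with Zc3h11a, in which it lies on the same strand. Zbed3, Zbed4, Zbed5 and Gtf2ird2 had log2 fold changes from -0.15 to 0.28 in RNA, the highest being Zbed5, which overlaps Phkg1 on the other strand. Of the piggyBac relatives, Pgbd5 gave -0.03 and Pgbd1 -0.40 (SE 0.31), from 100, 65 and 59 RNA counts in Mael+/- and 23, 51 and 68 in Mael-/-. Without Mael+/- replicate 1, Pgbd1 stood at -0.027. The Harbinger relatives Harbi1 and Naif1 gave -0.0033 and -0.14. Rag1 and Rag2, which code for the recombinase of lymphocytes and were listed under Transib, were at or near the floor. Rag1 had 0 counts in the 6 Mael+/- libraries and 7, 1 and 6 RNA counts in Mael-/-. Genes with the THAP domain of the P element, Thap1, Thap2, Thap3, Thap4, Thap7 and Thap11, had log2 fold changes of -0.13 to 0.10 in RNA and, in footprints, of -0.15 to -0.08, and Thap11 was the highest at 45.9 ± 4.72 CPM per kilobase in Mael+/- RNA. Cenpb overlaps Spef1, Thap1 overlaps Gm45692 and Rag1 overlaps B230118H07Rik, each on the same strand. Pogk, Gtf2ird2, Naif1, Thap4, Rag2 and Tigd4 overlap genes on the other strand. Where the counting could split or drop reads, counts of these genes carry the same uncertainty as those of Zbed6.

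**Figure D5:**
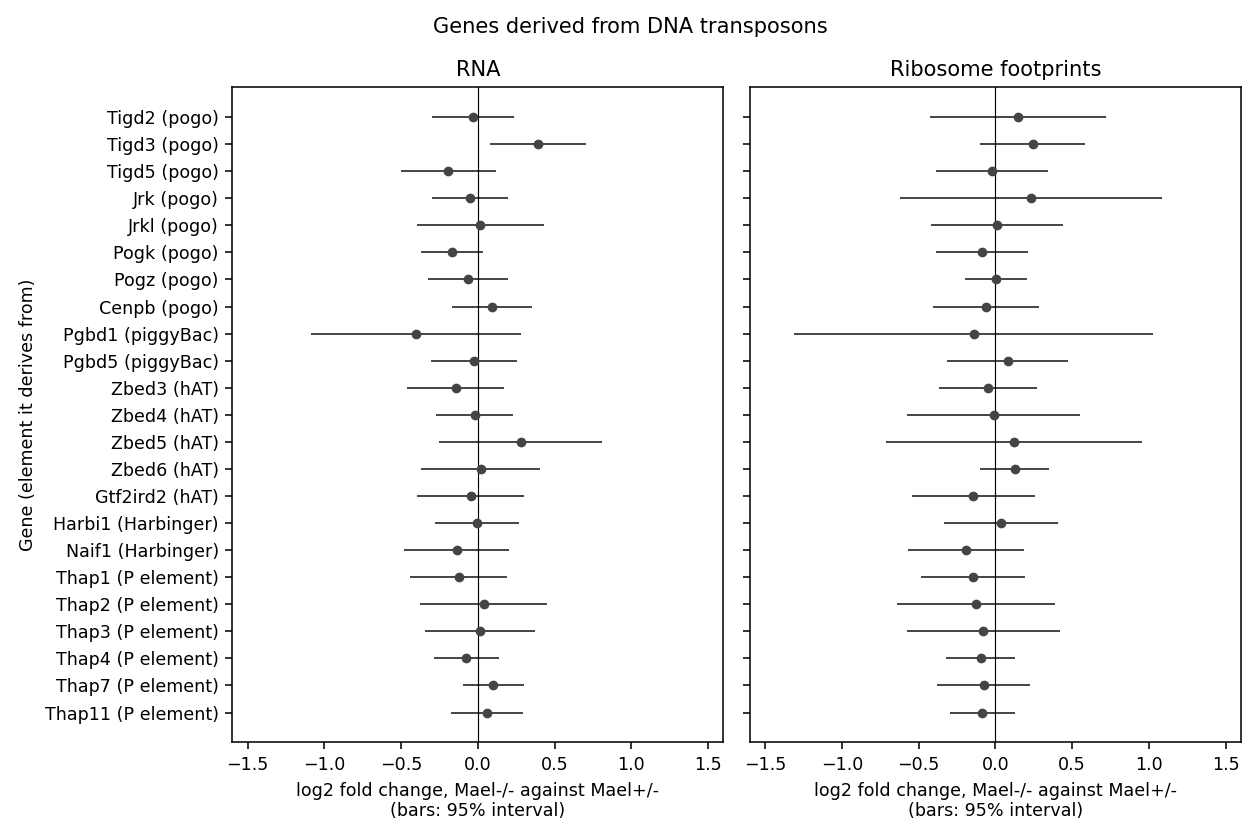
log2 fold change (Mael-/- against Mael+/-) of the 23 tested genes that derive from DNA transposons, in RNA (left) and footprints (right), with the element each derives from. Bars are 95% intervals, and they include 0 for every gene except Tigd3 in RNA.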

How the data were processed

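Total RNA and ribosome footprints were sequenced from testes, 3 replicates per genotype and assay. The deposited table holds raw read counts per gene and per repeat copy. Per the submitters' processing notes and the study's methods, the authors removed ribosomal reads from footprints with Bowtie 1.2.2, mapped reads to mm10 with STAR 2.6.0c and counted them with featureCounts of Subread 1.6.4, with genes read over the full mRNA in RNA libraries and within the coding sequence in footprint libraries. How reads with several mapping places, or the strand, were handled for repeats is not given in the sources used here, so reads of near-identical copies may be split or lost. The deposited DESeq2 1.24.0 tables hold the authors' log2 fold changes, standard errors and p-values and were not used.

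Copies of class DNA were summed by family and subfamily. CPM used gene totals times TMM factors of the genes. All repeat families, subfamilies, copies and genes were tested with edgeR 4.0.16 (limma 3.58.1, R 4.3.3) quasi-likelihood tests after its default low-count filter, with Benjamini-Hochberg adjustment over everything tested and a threshold of 0.05. For footprint families and subfamilies the fit gave all of them 1 shared estimate of the residual spread, so their intervals and p-values do not rest on the member's own replicates alone. The SE of edgeR fits was taken as the absolute log2 fold change over the square root of F, and intervals were built from it. Sums were compared by exact two-sided permutation tests (Python 3.11.15, SciPy 1.17.1, pandas 2.3.3). Counting intervals (95%) and floors of 3 counts cover counting error alone. The tests were tried on simulated data first. Of 2-fold changes in subfamilies, 72.3% were recovered in RNA, 88.7% in footprints and 42.9% in footprints beyond RNA. For single copies it was 14.6% in RNA and 18.6% in footprints. The simulated counts had 1 common spread for all features and no library set apart, unlike Mael+/- extract 1 here. The changed features were drawn from repeats of all classes. So these shares need not hold for the DNA members of these data.

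The members, the gene lists and the tests were chosen with earlier results of these data known. Named were all families, the 10 subfamilies and 10 copies of the highest total, called members, the 5 tested subfamilies of the largest fold change each way per assay, the rodent-lineage subfamilies, and called or the 5 most changed genes of the list of transposon-related genes. Other names were added after their values were seen. Alternatives were DESeq2 1.42.0, other size factors, other count filters, a replicate block and leaving out each replicate. RNA and footprint libraries of the same genotype and number deviated together over 11235 genes (r 0.80, 0.67, 0.73, 0.24, 0.27 and 0.23), so footprints beyond RNA were also fitted with a term for each extract. Copies outside annotated exons were not analysed separately, since the table gives no positions.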

Additional observations from a re-analysis of the deposited data

How the results depend on the processing

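Of 723 alternative values, 666 held both direction and call. The DNA class total in RNA (log2 difference 0.07) turned to -0.12 when library size was taken from all repeat counts, and ran from -0.085 to 0.19 with 1 replicate left out. In footprints (0.14) it was 0.0075 with that library size and ran from 0.013 to 0.26 with 1 replicate left out. The log2 ratio to L2 and MIR ran from -0.012 to 0.041 in RNA libraries, and in footprint libraries from 0.028 to 0.081. Called DNA subfamilies in footprints (1) became 0 with DESeq2, 0 with a mean of at least 50 counts, 0 without the top copy of each subfamily (an alternative added after the data were seen) and 0 to 2 with 1 replicate left out, against 0 to 1 in RNA. Charlie18a fell short of that mean in footprints and was not tested there, so this setting could not repeat its call. Of all subfamilies 0.957% were called with DESeq2, 2.05% at that mean and 1.47% without top copies. The 2 of 140 came without Mael+/- footprint replicate 1, where 51 of all 1065 were called (4.79%). The 1 in RNA came without Mael+/- replicate 2, where 1.58% of all were called. Called DNA copies numbered 0 to 2 in RNA and 0 to 2 in footprints with 1 replicate left out, and 0 in footprints at a mean of at least 50 counts. Charlie18a_224 likewise fell short of that mean and was not tested there. The 2 of 520 in RNA, FordPrefect_30 and Charlie18a_224, came without Mael+/- replicate 2, where 1.76% of all copies were called. Charlie18a_224 had 0 counts in all Mael-/- RNA libraries, so wherever it passed the filter in RNA it had to differ. It was also the 1 copy called without Mael-/- RNA replicate 1, 2 or 3, where 1.17%, 0.837% and 1.89% of all copies were called. The 2 of 176 in footprints, Charlie18a_224 and Tigger7_2222, came without Mael+/- replicate 1, where 1.01% of all were called. At that mean 0.635% of all were called in footprints. Genotypes share replicate numbers that nothing ties to a shared litter or day, and the deviations of same-numbered libraries correlated from -0.02 to 0.30. With these numbers as a replicate block, called DNA subfamilies stayed at 0 in RNA and 1 in footprints (of all subfamilies 3.50% and 1.63% were called), and Charlie8 in RNA stood at -0.0025. Charlie8 was -0.062 without its top copy, Ricksha_c was 0.093 in RNA and 0.26 in footprints without its top copy, and MER5A in footprints was -0.0032 on copies with RNA.

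Directions of small changes were unstable when 1 replicate was left out. In RNA the log2 fold change ran from -0.029 to 0.21 for URR1B, -0.090 to 0.16 for URR1A, -0.087 to 0.15 for MER20, -0.13 to 0.22 for MER2, -0.14 to 0.11 for MER5A, -0.079 to 0.31 for RCHARR1, -0.12 to 0.088 for Charlie8, -0.12 to 0.29 for Tigger7, -0.16 to 0.29 for Charlie1a, -0.12 to 0.18 for MER5B, -0.11 to 0.34 for RMER30 and -0.81 to 0.26 for FordPrefect. In footprints it ran from -0.11 to 0.17 for MER5A, -0.12 to 0.18 for RCHARR1, -0.044 to 0.21 for Tigger7, -0.10 to 0.42 for Charlie1a, -0.0097 to 0.22 for MER5B and -0.97 to 0.14 for Ricksha_c. The cause was not tested.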

Other observations

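Copies whose class is given as DNA with a question mark held 2095 counts on 108 of 1027 copies. In RNA they had 185, 217 and 204 counts in Mael+/- and 144, 161 and 217 in Mael-/-, and in footprints 148, 125 and 160 against 188, 176 and 170. Single copies of MER124, an old element of this class, split between the assays. MER124_209 had 69, 91 and 95 RNA counts in Mael+/- and 44, 65 and 90 in Mael-/-, with 6 to 18 footprint counts per library. MER124_226 had 0 RNA counts in all 6 libraries and 32 to 48 footprint counts in each footprint library. Rolling-circle elements (Helitrons), which move as DNA by another route, held 225 counts on 43 of 345 copies. These copies were named after their values were seen.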
